A study of Mus musculus and Rattus norvegicus with 32 samples.

Results

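The 8 genes Efhd2, Lman1l, Immp2l, Sulf2, Ptx3, Map1a, Lta4h and Dipk2a lead the difference between METTL5-cKO and control hearts after transverse aortic constriction (TAC), and they were chosen by that difference. All 8 have a row among the 55487 genes of the mouse tables. In the rat table of 32883 genes, 7 of them have a row, and no row there carries the symbol Immp2l. Their values after TAC are therefore given as a description, and tests are given for the hearts and cells that did not choose them.

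RNA sequencing covered 4 comparisons with 4 libraries per group. Hearts of C57BL/6 mice came from METTL5-KO and control mice aged 1 month, from METTL5-cKO and control mice aged 3 months, and from METTL5-cKO and control mice labelled 3 months old and taken 4 weeks after TAC. In the METTL5-cKO mice, exons 2 to 4 of Mettl5 are floxed and Myh6-Cre, which is active in cardiomyocytes, deletes them, so the other cells of the heart keep the gene. The METTL5-KO line is given in the sources as a knockout with no cell type named, and all mouse controls are littermates. The genotype label of the METTL5-cKO hearts reads Mettl5-KO and their titles read Mettl5-cKO, and the titles of the TAC controls do not name the surgery, which their descriptions do. Neonatal rat ventricular cardiomyocytes (NRVMs, Sprague Dawley, postnatal day 2) received an adenovirus with METTL5 of human sequence (AdMETTL5) or with GFP (AdGFP), and all of them were treated with 20 μM phenylephrine (PE) for 24 h. No sham-operated hearts and no NRVMs without PE were analysed here, and cells were pre-plated to remove fibroblasts. The headers give each library its own number, but the labels do not say whether the libraries of a group came from separate animals or cultures, so p-values measure the spread between libraries.

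TAC narrows the aorta and loads the left ventricle with pressure, to which the heart responds with growth of cardiomyocytes, with fibrosis and finally with failure. PE activates alpha-adrenergic receptors and makes cultured cardiomyocytes grow. METTL5 methylates an adenosine in the RNA of the small ribosomal subunit. The 8 genes belong to unlike processes. Ptx3 is a secreted pentraxin of innate immunity, Sulf2 removes sulfate groups from heparan sulfate outside the cell, Dipk2a is a kinase-like protein of the secretory pathway, and Lman1l is a relative of the cargo lectin Lman1 that carries glycoproteins out of the endoplasmic reticulum. Efhd2 binds calcium and actin, and Map1a binds microtubules. Immp2l is a catalytic subunit of the inner membrane peptidase of mitochondria, which trims proteins such as cytochrome c1 (Cyc1) and the glycerol phosphate dehydrogenase Gpd2. Lta4h makes the attractant leukotriene B4 from leukotriene A4.

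The genes lie on 6 chromosomes of GRCm38 and differ widely in size. Immp2l (ENSMUSG00000056899, chr12:41024090-41955588, plus strand) spans 931499 bases with 1832 exonic bases, and 99.7% of coding genes have a shorter span. Efhd2 (ENSMUSG00000040659, chr4:141858142-141874920, minus strand) spans 16779 bases and Lman1l (ENSMUSG00000056271, chr9:57607085-57620774, minus strand) spans 13690 bases, both shorter than the median of 17318 bases for coding genes. Sulf2 (ENSMUSG00000006800, chr2:166073089-166155663, minus strand), Ptx3 (ENSMUSG00000027832, chr3:66219910-66225805, plus strand), Map1a (ENSMUSG00000027254, chr2:121289600-121310832, plus strand), Lta4h (ENSMUSG00000015889, chr10:93453411-93484875, plus strand) and Dipk2a (ENSMUSG00000045414, chr9:94517864-94538081, minus strand) span between 5896 and 82575 bases. Among coding genes, Lrrn3 lies within an intron of Immp2l and Ptx3 lies within Veph1, each on the other strand and with no exonic base shared. Sulf2 shares 154 exonic bases with Ncoa3 and Map1a shares 272 with Ppip5k1, both on the other strand. Since the sources do not say whether reads were counted by strand, reads on those shared bases cannot be assigned to either gene.

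The promoters of 3 of the genes are shown, those of the genes with ranks 1 to 3 by the p-value of the TAC fit: Efhd2 and Lman1l, which were higher in METTL5-cKO hearts, and Immp2l, which was lower. Each run is the 250 bases before the RefSeq start in GRCm38.p6, from 5′ to 3′ on the strand of the gene. They lie at chr4:141874921-141875170 (Efhd2, minus strand), chr12:41023840-41024089 (Immp2l, plus strand) and chr9:57620775-57621024 (Lman1l, minus strand). The motifs searched on both strands were the GC box GGGCGG, the CCAAT box named after its letters, the TATA box TATAAA, the AP-1 site TGANTCA and the cAMP response element TGACGTCA, and capitals mark their matches.
Efhd2: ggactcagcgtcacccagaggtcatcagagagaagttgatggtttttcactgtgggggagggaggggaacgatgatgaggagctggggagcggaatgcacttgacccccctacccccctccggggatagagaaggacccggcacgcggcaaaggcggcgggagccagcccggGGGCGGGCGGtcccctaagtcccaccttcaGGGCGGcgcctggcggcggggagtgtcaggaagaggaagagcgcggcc
Immp2l: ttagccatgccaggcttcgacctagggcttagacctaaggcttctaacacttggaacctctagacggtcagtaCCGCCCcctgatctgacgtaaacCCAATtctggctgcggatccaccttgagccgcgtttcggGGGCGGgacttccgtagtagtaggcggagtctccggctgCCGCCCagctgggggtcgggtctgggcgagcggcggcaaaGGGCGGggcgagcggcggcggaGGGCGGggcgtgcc
Lman1l: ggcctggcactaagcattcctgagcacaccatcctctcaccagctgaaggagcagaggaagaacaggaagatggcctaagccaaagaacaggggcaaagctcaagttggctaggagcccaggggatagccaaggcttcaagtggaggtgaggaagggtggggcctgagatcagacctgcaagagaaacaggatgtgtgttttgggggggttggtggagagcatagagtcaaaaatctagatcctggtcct
The Efhd2 run held 18 CpG and 3 GC boxes, of which a pair overlap, and the Immp2l run held 24 CpG, 5 GC boxes and 1 CCAAT box. The Lman1l run held 0 CpG and none of the motifs. Over the 32851 promoters of the table, the median was 6 CpG and 52.4% GC, 32.7% held a GC box and 33.8% a CCAAT box, against a GC content of 67.2% for Efhd2, 66.0% for Immp2l and 54.0% for Lman1l. The other motifs were in 12.4% (TATA box), 6.75% (AP-1 site) and 1.55% (cAMP response element) of promoters and in none of these 3 runs. A match is a description of letters and not a site.

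The 24 mouse libraries held 19899033 to 21804907 counts and the 8 rat libraries 14324700 to 18085339, where each AdMETTL5 library was below each AdGFP library. Levels are normalized read counts, as CPM, the count scaled to a fixed total per library, on library sizes scaled by TMM within each table. The targeted gene Mettl5 had 7.36 ± 0.554 CPM in control hearts and 6.51 ± 0.731 in METTL5-cKO hearts at 3 months, 6.75 ± 0.753 and 6.59 ± 0.764 after TAC, and 5.12 ± 0.665 in control and 5.97 ± 0.807 in METTL5-KO hearts at 1 month (SD, n = 4). Its log2 fold changes of -0.18, -0.04 and 0.22 did not pass the test, with adjusted p = 0.884, 0.874 and 0.973 from edgeR (its quasi-likelihood test, adjusted over all genes by Benjamini and Hochberg). In METTL5-cKO hearts the count of the whole gene includes the exons outside the floxed part and the cells without Cre, so it does not measure the deletion. The paper reports that reads over the floxed exons were nearly absent in METTL5-cKO hearts. Single exons were not counted here, so in these counts the genotypes of both lines rest on the labels. In NRVMs the rat gene had 17.0 ± 0.774 CPM with AdGFP and 21.2 ± 1.76 with AdMETTL5 (log2 fold change 0.32, adjusted p = 0.00295), which is no measure of the human sequence in the virus.

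After TAC, 7 of the 8 genes were higher in METTL5-cKO than in control hearts and Immp2l was lower, and for all 8 the groups did not overlap. This describes how they were selected. Among the 16340 genes tested there, 6.57% were higher and 6.10% lower at an adjusted p under 0.05 and 18.6% had groups that did not overlap, and nothing is read from the count of the 8 genes against these shares. By the p-value of the fit, Efhd2, Lman1l and Immp2l held ranks 1, 2 and 3 and Sulf2 rank 10. Dipk2a held rank 58, and Map1a and Lta4h held ranks 316 and 375. Ptx3 passed the filter on low counts only through the METTL5-cKO group, so no rank is given for it. The list thus holds the first 3 genes and others from further down.

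**Figure D1:**
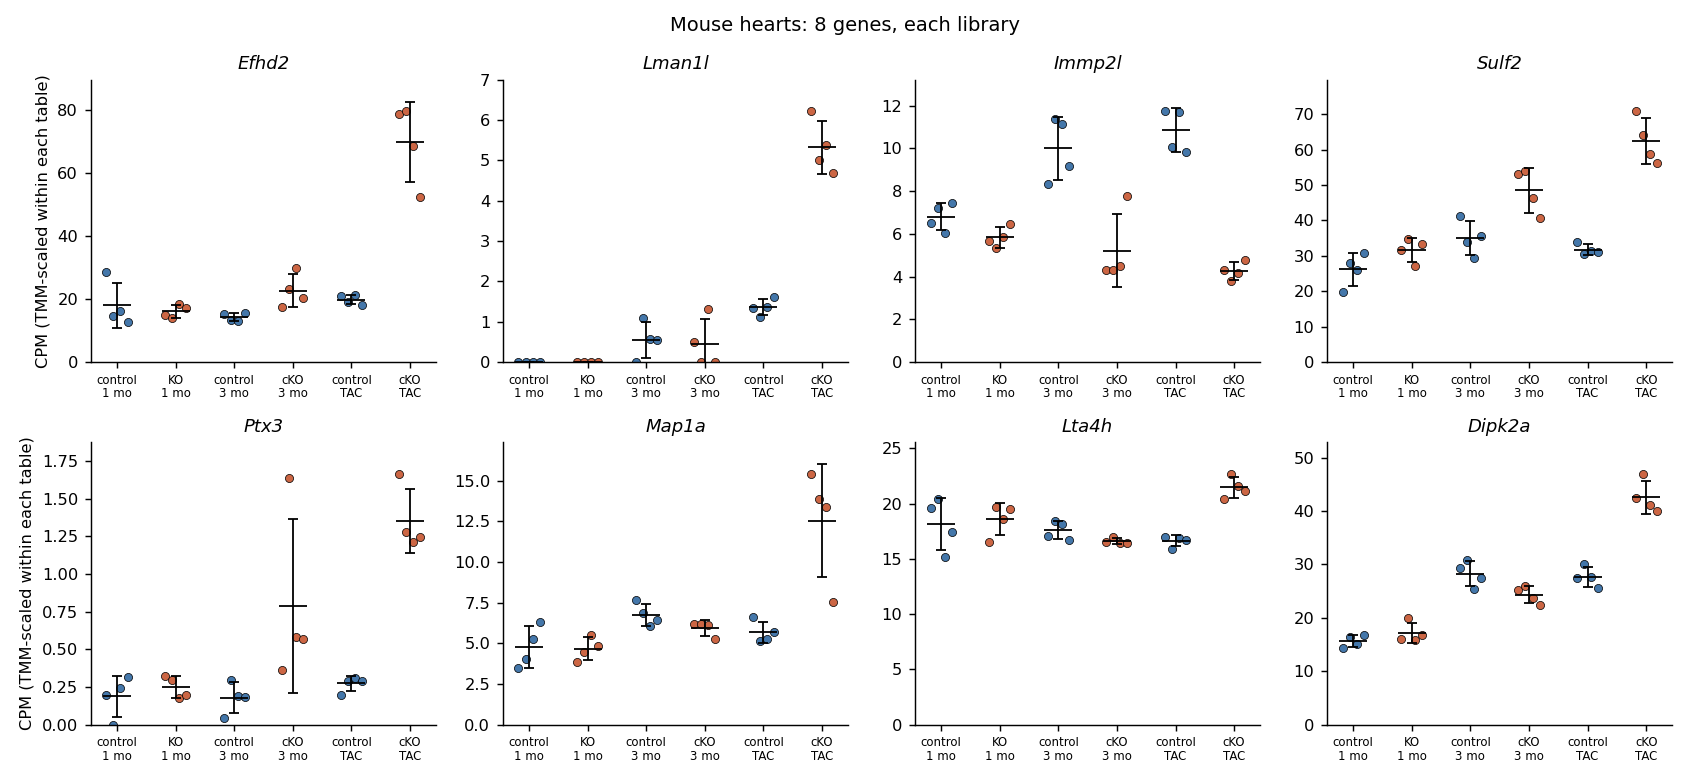
Each panel shows 1 gene in the 24 mouse hearts, with CPM on a linear axis from 0. Points are libraries (blue control, orange METTL5-KO or METTL5-cKO), and bars are the mean ± SD of 4 libraries. By group mean, METTL5-cKO hearts after TAC stand highest for 7 genes and lowest for Immp2l (4.26 CPM).

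Of the secreted and secretory genes, Ptx3 had 0.198, 0.292, 0.312 and 0.291 CPM in the 4 control hearts after TAC and 1.67, 1.28, 1.21 and 1.25 in the METTL5-cKO hearts. It was the gene with the lowest level and the steepest rise, by a log2 fold change of 2.28 (standard error 0.219), on counts of only 4 to 6 and 25 to 38. The control counts were under the filter on low counts, which Ptx3 passed only through the METTL5-cKO hearts. Sulf2 had 34.0, 30.6, 31.4 and 31.0 CPM in control and 70.9, 64.1, 58.8 and 56.3 in METTL5-cKO hearts. The lowest METTL5-cKO value was well above the highest control value, and the log2 fold change was 0.98 (standard error 0.087). Dipk2a had 27.5, 30.1, 27.7 and 25.6 CPM against 42.4, 47.0, 41.1 and 40.0. This was a smaller difference with little spread in either group, a log2 fold change of 0.62 (standard error 0.0805). Lman1l had 1.34, 1.12, 1.35 and 1.60 CPM in control hearts, from 23 to 33 counts, and 6.23, 5.01, 5.38 and 4.69 in METTL5-cKO hearts, from 94 to 142 counts. Its log2 fold change was 1.97 (standard error 0.15).

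Of the cytoskeletal genes, Efhd2 had 21.0, 18.9, 21.2 and 18.1 CPM in control hearts after TAC and 78.8, 79.7, 68.6 and 52.5 in METTL5-cKO hearts, a log2 fold change of 1.82 (standard error 0.135). Map1a had 6.60, 5.16, 5.26 and 5.68 CPM against 15.4, 13.9, 13.4 and 7.54, a log2 fold change of 1.15 (standard error 0.203). For both genes METTL5-cKO library 4 (numbers follow the order of those in the headers and only name a library) was the lowest of its group, for Map1a close to the highest control library. This library was also the lowest of its group for Sulf2, Dipk2a and Lman1l and the highest for Immp2l, though not the lowest for Ptx3 or Lta4h. Without it the log2 fold changes were 1.94 for Efhd2 and 1.33 for Map1a. The mitochondrial gene Immp2l was the 1 gene that was lower, with 11.8, 10.1, 11.7 and 9.85 CPM in control hearts against 4.30, 3.78, 4.16 and 4.79, a log2 fold change of -1.35 (standard error 0.107). Lta4h moved least, from 17.0, 15.9, 16.9 and 16.7 CPM to 20.4, 22.7, 21.6 and 21.1, a log2 fold change of 0.37 (standard error 0.0676), with groups that nevertheless did not overlap.

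Markers of other heart cells moved with the genotype after TAC, where 6.57% of all genes tested were higher and 6.10% lower. The summed level of 9 fibroblast markers was 611 to 786 CPM in control and 931 to 2422 CPM in METTL5-cKO hearts, and 7 of the 9 passed the test upward, among them Col1a1 and Mfap5. The 10 macrophage markers summed to 251 to 342 CPM against 343 to 455 CPM, with 3 of 10 upward (Adgre1, Mrc1 and Lyz2). The 8 endothelial markers summed to 804 to 935 CPM against 550 to 722 CPM, with 6 of 8 downward, and the 10 cardiomyocyte markers to 38030 to 42580 CPM against 27830 to 35340 CPM, with Tnni3 and Myl2 downward. Of 4 neutrophil markers tested and 6 of smooth muscle and pericytes, none passed. None of the markers in these 4 main lists was at 0 in all libraries. METTL5-cKO library 4, which was the lowest of its group for Efhd2, Map1a, Sulf2, Dipk2a and Lman1l, had the lowest fibroblast sum of its group (931 CPM) and the highest cardiomyocyte sum (35340 CPM). In whole hearts, a change in the number of cells of a type and a change in RNA per cell cannot be told apart, and the part of these markers in the levels of the 8 genes was not tested.

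**Figure D2:**
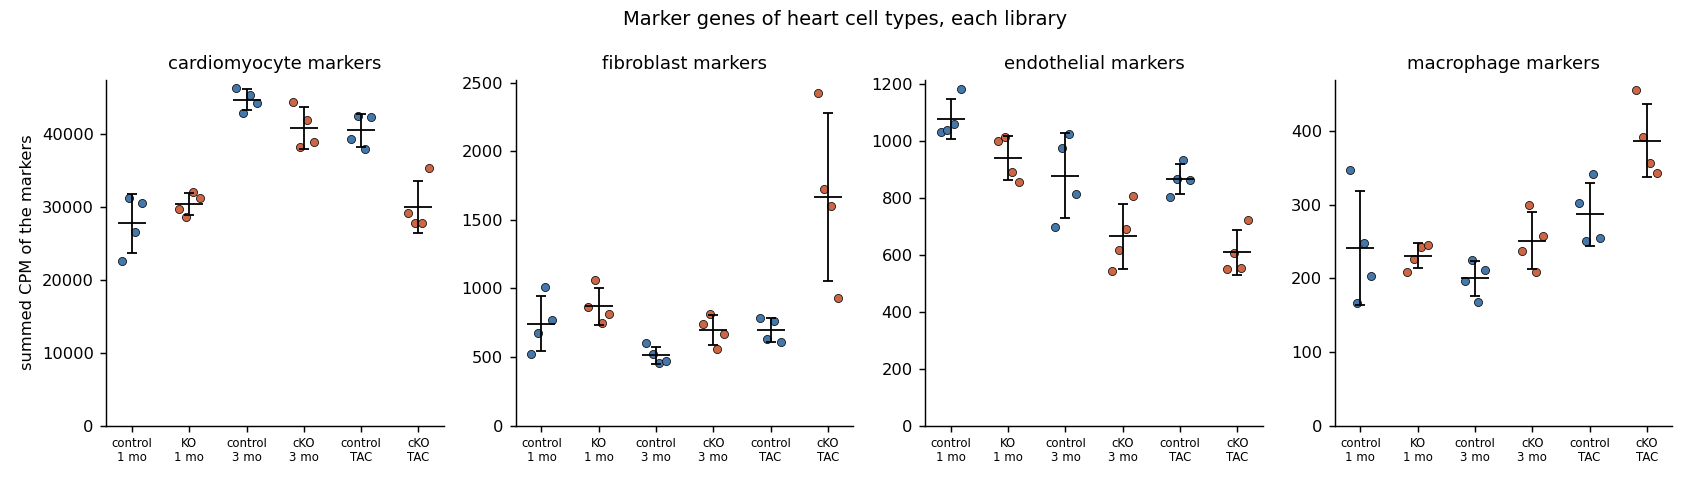
Each panel shows the summed CPM of the markers of 1 cell type in each mouse heart, on a linear axis from 0, with points for libraries (blue control, orange METTL5-KO or METTL5-cKO) and bars for the mean ± SD of 4. After TAC the fibroblast sums of METTL5-cKO hearts (931 to 2422 CPM) lie above those of control hearts (611 to 786 CPM), and the endothelial and cardiomyocyte sums lie below.

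The first test outside the selecting data asked whether the genes already differed in METTL5-cKO hearts without surgery. At 3 months, 0 of the 7 genes tested passed an adjusted p of 0.05 in edgeR's quasi-likelihood test, where 0.0732% of the 16391 genes did. At an unadjusted p under 0.05 there were 4 of 7, against 7.05% of all genes. Of these 4, Efhd2 and Sulf2 were higher and Immp2l was lower, as after TAC, and Dipk2a was lower, where it was higher after TAC. Control and METTL5-cKO libraries were fully apart for Efhd2, Immp2l and Ptx3, the last of which was under the filter on low counts, and for 4.23% of the genes tested. That filter asks for about 10 counts in at least 4 libraries.

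Efhd2 had 15.1, 13.3, 13.1 and 15.7 CPM in control hearts and 17.5, 23.1, 29.8 and 20.3 in METTL5-cKO hearts at 3 months. Each METTL5-cKO heart was above each control heart, yet the spread was wide in the former. This gave a log2 fold change of 0.66 (95% interval 0.307 to 1.02, standard error 0.159), with adjusted p = 0.297 from edgeR and p = 0.0286 from the exact two-sided permutation test, the smallest that 4 against 4 libraries can give. Immp2l had 8.35, 11.4, 11.1 and 9.20 CPM in control hearts and 4.30, 4.31, 4.49 and 7.76 in METTL5-cKO hearts. Of the METTL5-cKO hearts 3 lay close together, at the level seen in METTL5-cKO hearts after TAC, and library 4 lay just under the lowest control heart. This gave a log2 fold change of -0.94 (95% interval -1.41 to -0.477, standard error 0.207; adjusted p = 0.282 from edgeR, exact permutation p = 0.0286).

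The call of Efhd2 at 3 months turned on the test, and that of Immp2l on the test and on 1 library. DESeq2's Wald test gave log2 fold changes of 0.67 for Efhd2 and -0.94 for Immp2l with adjusted p = 0.0439 and 0.0116, and with it 108 genes were called in place of 12. Without METTL5-cKO library 4, the log2 fold change of Immp2l was -1.20, with adjusted p = 0.0358 from edgeR.

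Sulf2 at 3 months had 41.3, 33.9, 29.4 and 35.5 CPM in control and 53.2, 54.0, 46.4 and 40.6 in METTL5-cKO hearts, so the highest control heart was above the lowest METTL5-cKO heart. The change on the log2 scale was 0.47 (standard error 0.128; by edgeR adjusted p = 0.372, exact permutation p = 0.0571). Ptx3 had 1, 6, 4 and 4 counts in control and 8, 35, 13 and 12 counts in METTL5-cKO hearts, or 0.178 ± 0.102 and 0.789 ± 0.576 CPM (SD, n = 4). The groups did not overlap (exact permutation p = 0.0286), and METTL5-cKO library 2 with 35 counts stood above the others. Without the filter the log2 fold change of 2.12 had adjusted p = 0.703 from edgeR, and DESeq2's Wald test gave adjusted p = 0.202. Both genes had the sign of their difference after TAC. The summed fibroblast markers were 457 to 599 CPM in control and 555 to 811 CPM in METTL5-cKO hearts, and the macrophage markers 168 to 225 and 209 to 300 CPM. All 9 fibroblast and all 10 macrophage markers had log2 fold changes above 0, and none of them passed the test. At an unadjusted p under 0.05 in edgeR there were 6 and 5, beside 7.05% of all genes tested. All 8 endothelial markers had log2 fold changes below 0 (0 passed, 3 at an unadjusted p under 0.05), with sums of 699 to 1023 CPM in control and 544 to 808 CPM in METTL5-cKO hearts. The cardiomyocyte markers, 1 of 10 above 0, summed to 42940 to 46340 and 38280 to 44450 CPM, and none of them passed. The part of these markers in the levels of the 8 genes was not tested.

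Dipk2a had 29.3, 30.8, 25.5 and 27.5 CPM in control and 25.3, 26.0, 23.7 and 22.4 in METTL5-cKO hearts at 3 months, a log2 fold change of -0.22 (standard error 0.0918, 95% interval -0.421 to -0.0103). It did not pass the adjusted test (adjusted p = 0.683 from edgeR, exact permutation p = 0.0571). Map1a, with 6.76 ± 0.668 and 5.94 ± 0.471 CPM, and Lta4h, with 17.6 ± 0.822 and 16.6 ± 0.287 CPM (SD, n = 4), had log2 fold changes of -0.18 and -0.08, with adjusted p = 0.868 and 0.954 from edgeR. Their 95% intervals were -0.441 to 0.0709 and -0.262 to 0.0939. Lman1l had 0, 22, 12 and 12 counts in control and 11, 0, 29 and 0 counts in METTL5-cKO hearts, too few to order the groups (log2 fold change -0.25, standard error 1.05). Whether the effect of the genotype differed between hearts at 3 months and after TAC was not tested.

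**Figure D3:**
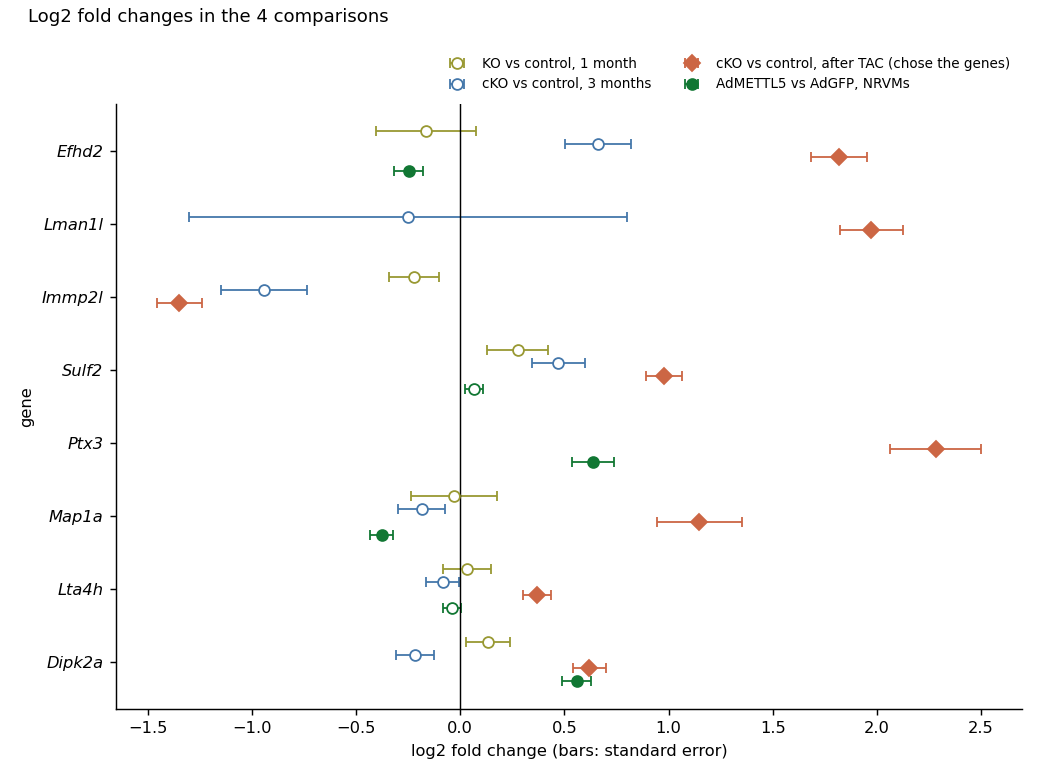
Log2 fold change of each gene (horizontal axis, bars are the standard error) in the 4 comparisons, for the genes that passed the filter. Filled circles passed an adjusted p of 0.05 and open circles did not, and diamonds mark the TAC values that chose the genes. Immp2l lies below 0 in the 3 mouse comparisons, and the 4 filled circles are all from NRVMs.

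At 1 month, in METTL5-KO hearts, 0 of the 6 genes tested passed in edgeR, and none was under an unadjusted p of 0.05, where 4.57% of all genes were. One gene in all, or 0.00612% of the 16329 tested, passed an adjusted p of 0.05. The groups overlapped for all 8 genes, and did not for 3.01% of the genes tested. Immp2l had 6.51, 7.22, 6.04 and 7.44 CPM in control and 5.68, 5.32, 5.87 and 6.47 CPM in METTL5-KO hearts, a log2 fold change of -0.22 (standard error 0.12, 95% interval -0.491 to 0.0481, adjusted p = 0.973). Sulf2 had 19.8, 28.1, 25.9 and 30.9 CPM in control and 31.7, 34.8, 27.0 and 33.3 CPM in METTL5-KO hearts, a log2 fold change of 0.28 (standard error 0.146, 95% interval -0.051 to 0.604, adjusted p = 0.973). Both had overlapping groups and intervals that include 0.

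Efhd2 at 1 month had 28.5, 14.5, 16.1 and 12.5 CPM in control and 14.9, 13.9, 18.3 and 17.1 CPM in METTL5-KO hearts. Control library 1 lay far above the rest, and without it the log2 fold change turned from -0.17 to 0.16. In this library the neutrophil markers summed to 55.3 CPM (1.99 to 5.435 in the other controls) and the macrophage markers to 347.5 CPM (167.2 to 248). Its cardiomyocyte sum of 22640 CPM (26550 to 31240) and fibroblast sum of 525.3 CPM (672.8 to 1009) were the lowest of the controls. Without this library, 0 of the genes passed as well. The part of these markers in the levels of the genes was not tested. Dipk2a, Lta4h and Map1a had log2 fold changes of 0.13, 0.03 and -0.03, and those of Lta4h and Map1a changed sign when 1 library was left out. Ptx3 had 0 to 6 counts in control and 4 to 7 in METTL5-KO hearts, under the filter. Lman1l had 0 counts in all 8 libraries of 1-month hearts. At 3 months, 0 counts in some hearts stood beside 11 to 29 counts in others, so no upper limit is drawn from 0 counts. Where it was detected, hearts at 3 months and control hearts after TAC had 11 to 33 counts. Age, table and genotype cannot be told apart between the tables.

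On a joint scale of the 24 mouse libraries, the levels per kilobase of exon show how unlike the genes are. In control hearts after TAC, Efhd2 had 8.04, Dipk2a 6.79, Immp2l 5.72, Sulf2 5.22 and Lta4h 2.63 CPM per kilobase, and Lman1l, Map1a and Ptx3 were under 1, with 0.776, 0.451 and 0.0986. In METTL5-cKO hearts after TAC, Efhd2 had 28.7 CPM per kilobase (SD 5.29), ahead of Dipk2a with 10.5 (SD 0.778) and Sulf2 with 10.4 (SD 1.12), which do not differ beyond their spread. Immp2l, with 2.27 (SD 0.216), was then under Lta4h (3.44, SD 0.15) and Lman1l (3.09, SD 0.398). The joint levels of Efhd2 over the groups were 19.1 and 17.1 CPM in control and METTL5-KO hearts at 1 month, 13.8 and 21.9 in control and METTL5-cKO hearts at 3 months, and 19.2 and 68.3 after TAC. Those of Immp2l were 7.24 and 6.21 CPM, 9.67 and 5.03 CPM, and 10.5 and 4.16 CPM in the same order. The tables hold different hearts, so TAC and the table cannot be told apart, and levels across them are a description.

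The genes whose centred group means of log2 CPM over the 6 mouse groups lay closest to those of each gene were named, among 17597 genes, with the root mean square difference as the measure. For Efhd2 these were Pou3f1 (0.0683) and Tgfb2 (0.142). For Immp2l they were the transcripts Gm12167 (0.135) and mt-Ti (0.18), for Sulf2 Ehd4 (0.0762) and P4hb (0.0924), for Ptx3 Thbs1 (0.245) and Egr2 (0.257), and for Map1a Gab2 (0.113) and 2310057M21Rik (0.126). Lta4h lay closest to Atp8b1 (0.0253) and Lrrc59 (0.0352), and Dipk2a to Resf1 (0.051) and Snx10 (0.0598). Lman1l had no close match, with Ccn5 (0.545) and Aqp8 (0.546) nearest. Genes that vary little have small differences by this measure, so the values are not comparable between genes.

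NRVMs that received AdMETTL5 put the same genes in cultured cells under PE. Of the 6 genes tested, 4 passed an adjusted p of 0.05 in edgeR, with Ptx3 and Dipk2a higher and Efhd2 and Map1a lower with AdMETTL5. In this table, 27.1% of the 15041 genes were higher and 25.7% lower, so 4 of 6 is near the background and is not read as a result about these genes. The groups of the same 4 genes did not overlap, as for 48.4% of the genes tested. No log2 fold change of the 6 reached 1 in size.

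Efhd2 had 158, 158, 132 and 131 CPM with AdGFP and 123, 129, 120 and 116 CPM with AdMETTL5. The AdGFP libraries form 2 pairs, the lower of which is close to the AdMETTL5 libraries. The change on the log2 scale was -0.25 (standard error 0.0694; by edgeR adjusted p = 0.0101, exact permutation p = 0.0286). Map1a had 526, 566, 491 and 538 CPM against 392, 397, 408 and 436 CPM. Its groups were well apart, and the change on the log2 scale was -0.38 (standard error 0.0544; by edgeR adjusted p = 0.000108). Both genes had been higher in METTL5-cKO hearts after TAC.

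Dipk2a had 96.0, 105, 121 and 110 CPM with AdGFP and 147, 158, 162 and 170 CPM with AdMETTL5, which is 0.56 on the log2 scale (standard error 0.0692; by edgeR adjusted p = 3.28e-05). Ptx3 had 15.5, 16.1, 20.3 and 19.0 CPM against 26.9, 24.3, 27.1 and 32.0 CPM, which is 0.64 on the log2 scale (standard error 0.102; by edgeR adjusted p = 0.000238). These 2 genes were thus higher both in METTL5-cKO hearts after TAC and with AdMETTL5 in NRVMs. Sulf2 (401 ± 17.8 and 420 ± 7.89 CPM) and Lta4h (73.3 ± 1.46 and 71.3 ± 2.04 CPM; SD, n = 4) had log2 fold changes of 0.07 (95% interval -0.0317 to 0.164) and -0.04 (95% interval -0.135 to 0.0518), with adjusted p = 0.237 and 0.443 from edgeR. Lman1l had 0 counts in all 8 rat libraries.

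With scaling by library size alone, the median log2 fold change of all genes in NRVMs moved to 0.133. On that scale Efhd2 had a log2 fold change of -0.11 (adjusted p = 0.119 from edgeR) and Sulf2 of 0.20 (adjusted p = 0.00705), so these 2 calls turn on the scaling. All 9 cardiomyocyte markers tested in NRVMs fell, with sums of 18900 to 21210 CPM with AdGFP and 8826 to 9594 CPM with AdMETTL5, and fibroblast markers summed to 10720 to 11270 and 8558 to 9445 CPM, with 6 of 8 lower. Of the other lists, 3 of 6 macrophage markers fell and 2 of 6 endothelial markers rose, and of the smooth muscle and pericyte markers 2 of 6 rose and 1 fell. Among all genes tested in NRVMs, 27.1% were higher and 25.7% lower, and the counts of these other lists are not read as results. The 1 neutrophil marker tested, Mmp9, rose, and the list summed to 8.79 to 12.4 CPM with AdGFP and 13.9 to 18.3 CPM with AdMETTL5, while its markers S100a9, Retnlg and Cxcr2 were at 0. Their part in the levels of the 8 genes was not tested.

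**Figure D4:**
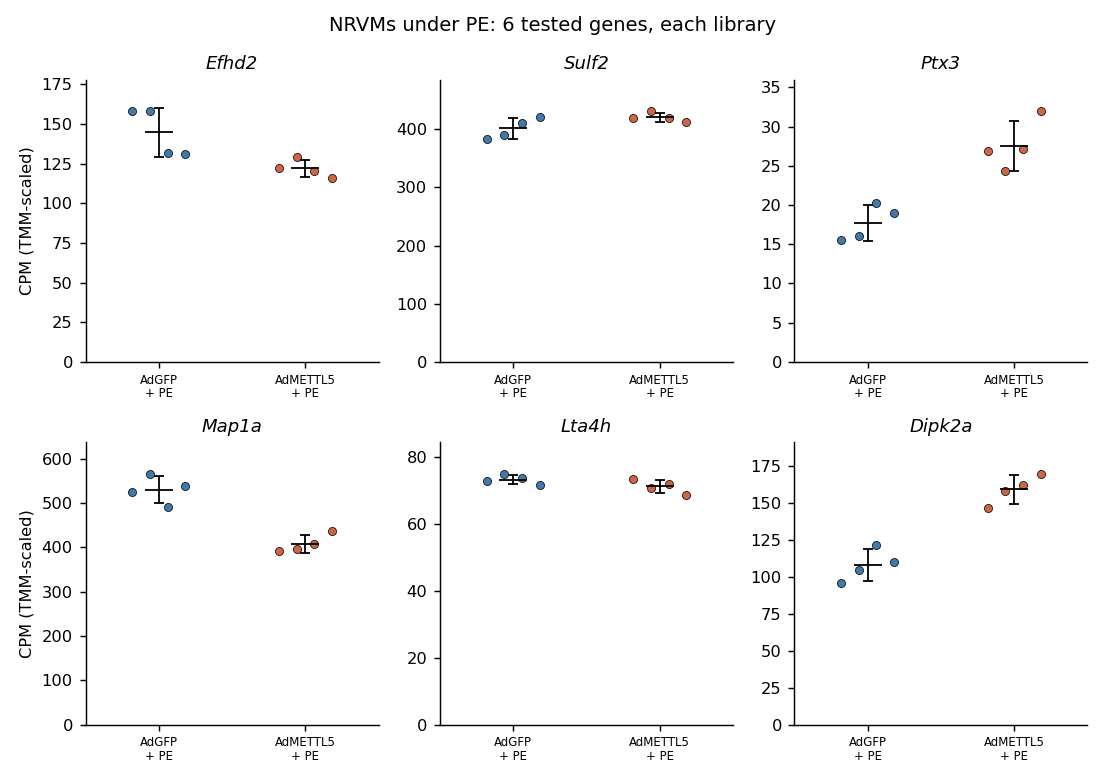
CPM of the 6 genes tested in NRVMs, on linear axes from 0, with points for libraries (blue AdGFP, orange AdMETTL5, all with PE) and bars for the mean ± SD of 4 libraries. The groups are apart for Efhd2, Ptx3, Map1a and Dipk2a, and they overlap for Sulf2 and Lta4h.

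The other genes of each pathway were read from lists of companions. After TAC, the counts of each list stand beside 6.57% of all genes tested that were higher and 6.10% that were lower. No set test was run, so the counts are not read as results about the lists. Of the other genes of calcium and actin binding, 2 of 16 rose in METTL5-cKO hearts and 0 fell: the actin-severing cofilin Cfl2, from 190 ± 10.3 to 270 ± 33.4 CPM, and the crosslinker Actn1, from 25.7 ± 1.10 to 38.3 ± 7.78 CPM (adjusted p = 0.0167 and 0.0255 from edgeR). Efhd1, the closest relative of Efhd2, had a log2 fold change of 0.97 (adjusted p = 0.166). The median of the list was 0.31, against -0.0035 for all genes tested, which is the reference for the medians of the other lists. Of the microtubule genes, 4 of 26 rose and 1 fell. Tubb3, a tubulin best known from neurons, rose from 0.622 ± 0.123 to 2.63 ± 1.22 CPM (log2 fold change 2.08, adjusted p = 0.0135), Tuba1c rose by a log2 fold change of 0.42 and Tuba4a fell by 0.74. Map1b, the relative of Map1a, had a log2 fold change of 0.66 that did not pass (adjusted p = 0.0751), and the list had a median of 0.19.

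The heparan sulfate genes included Sulf1, the other sulfatase of the extracellular matrix, which rose from 13.5 ± 0.436 to 31.0 ± 11.1 CPM after TAC (log2 fold change 1.20, adjusted p = 0.0151 from edgeR). The core proteins Gpc4 and Sdc1 rose by 0.71 and 0.56, and in all 5 of 24 rose and 0 fell, with a median of 0.03. At 3 months Sulf1 had a log2 fold change of 0.42 (adjusted p = 0.625). Among the partners of Ptx3, Itih2, a chain of the inter-alpha-trypsin inhibitor, had 0 counts in all control hearts and 1.59 ± 0.409 CPM in METTL5-cKO hearts after TAC. It passed the filter only through the METTL5-cKO group, so no p is given.

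**Figure D5:**
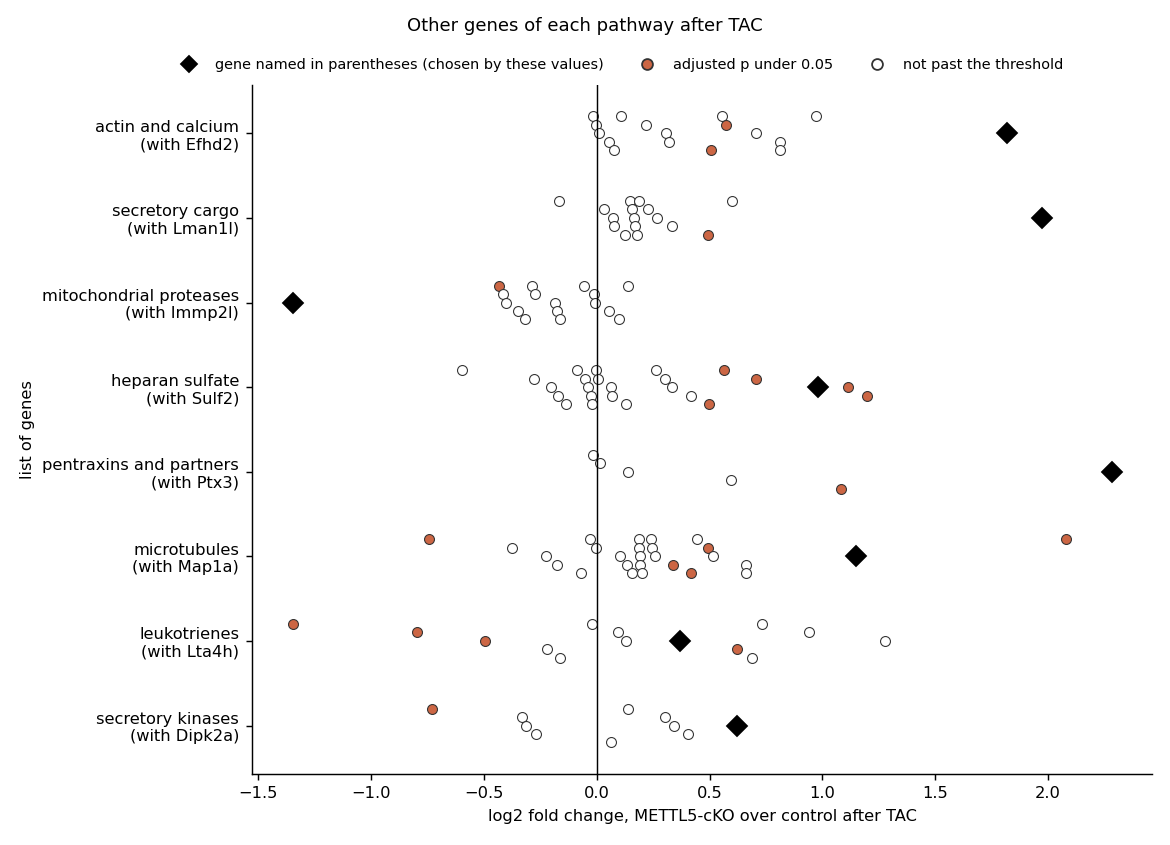
Log2 fold changes after TAC (METTL5-cKO over control, horizontal axis) of the genes of each list that passed the filter, except Itih2, which had 0 counts in control hearts. Filled circles passed an adjusted p of 0.05, open circles did not, and each diamond is the gene that the list accompanies, which was chosen by these values. Above 0 lie 14 of 16 genes of the actin list, 15 of 16 of the cargo list and 19 of 26 of the microtubule list. So do 13 of 24 of the heparan sulfate, 7 of 13 of the leukotriene, 5 of 9 of the kinase and 3 of 16 of the mitochondrial list. Most circles are open, and the median of all genes tested was -0.0035.

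Of the mitochondrial genes, Immp1l, the partner of Immp2l in the same peptidase, was the 1 of 16 that passed after TAC. It fell from 25.3 ± 2.19 to 18.8 ± 2.65 CPM (log2 fold change -0.43, adjusted p = 0.0351 from edgeR), with groups that overlapped, and the list had a median of -0.18. At 3 months, Immp1l had 25.6 ± 3.13 and 20.6 ± 2.34 CPM (log2 fold change -0.31, adjusted p = 0.614). In NRVMs, Immp1l fell with AdMETTL5 as well, from 12.3 ± 0.705 to 6.79 ± 1.04 CPM (log2 fold change -0.86, adjusted p = 2.79e-05).

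Of the leukotriene genes, 1 of 13 rows tested rose after TAC and 3 fell (Dpep2 has 2 rows in the mouse tables, so 16 genes fill 17 rows). Alox5, which makes leukotriene A4, the substrate of Lta4h, fell from 6.64 ± 0.273 to 4.72 ± 0.441 CPM (adjusted p = 0.0168 from edgeR), Alox12 fell from 3.96 ± 0.506 to 1.57 ± 0.780 and Ggt5 from 8.22 ± 0.684 to 4.75 ± 1.59 CPM. Lta4h itself was higher there, and the list had a median of 0.10. Of the secretory kinases, Dipk2b, the relative of Dipk2a, fell from 4.37 ± 0.873 to 2.63 ± 0.604 CPM (adjusted p = 0.0422), the 1 of 9 that passed, and Dipk1a did not pass (adjusted p = 0.43). Of the cargo receptors, Tmed3 was the 1 of 16 that rose, by a log2 fold change of 0.49 (adjusted p = 0.0267), and Lman1, the relative of Lman1l, had 0.19 (adjusted p = 0.14). The lists had medians of 0.06 and 0.17.

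At 1 month and at 3 months, 0 genes of the 8 lists passed in edgeR. At an unadjusted p under 0.05 there were 3 of 126 genes at 1 month and 20 of 123 at 3 months, beside 4.57% and 7.05% of all genes tested. These lists were not counted with DESeq2. In NRVMs, of the cargo receptors 0 of 16 rose and 10 fell, Lman1 among them (log2 fold change -0.60, adjusted p = 8.3e-07). Of calcium and actin genes 2 of 15 rose and 8 fell, of microtubule genes 7 of 25 rose and 12 fell, of heparan sulfate genes 6 of 25 rose and 8 fell, and of mitochondrial proteases 6 of 16 rose and 7 fell. Over all genes tested in NRVMs, 27.1% were higher and 25.7% lower. No set test was run, so these counts are not read as results about the lists. Alox5 rose with AdMETTL5, from 2.02 ± 0.234 to 4.59 ± 0.600 CPM (adjusted p = 3.02e-05), while Lta4h did not pass. Of the genes that overlap the 8, Ppip5k1 had a log2 fold change of -0.07 after TAC, where Map1a was higher, and Ncoa3 of -0.11, where Sulf2 was higher.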

How the data were processed

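The members and the lists of companions and markers were chosen with earlier results of these data known. The deposited tables held estimated counts per gene, which the authors made per the submitters' notes with HISAT2 2.0.4 and StringTie 2.1.4 on GRCm38 and Rnor_6.0 and used with DESeq2 1.4.5. They are whole numbers, so rounding changed nothing, and a test for plain counts had been planned. Strand settings are not given in the sources used here. Libraries were prepared with a BGIseq protocol.

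Each table was fitted on its own with edgeR 4.0.16 (R 4.3.3, limma 3.58.1): TMM, filterByExpr (minimum count 10, minimum total 15), the quasi-likelihood test and Benjamini-Hochberg adjustment over all genes. Exact two-sided permutation tests used 70 labelings of mean log2 CPM (prior count 2). Members after TAC have no test. Alternatives were DESeq2 1.42.0, its size factors, library size alone, other filters and thresholds, single libraries left out and, at 1 month, a replicate block. In the other tables the headers show the group and not which sample. Each fit was tested on simulated data and found 200 of 200 altered genes, with false calls between 7 and 15. The size of those alterations is not given here. The power to find differences of the size seen for the 8 genes at 1 month and 3 months was not tested. The most alike libraries still differed by more than sampling noise (chi-square over its degrees of freedom 2.16), so none was counted as a duplicate. Of the mouse identifiers, 55227 of 55487 matched GENCODE vM21 (GRCm38), and promoters came from RefSeq (GRCm38.p6), with 8 of 8 genes matched.

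Named were the 8 genes, up to 3 genes per list and comparison with the smallest adjusted p under 0.05, the first relative or partner of each list, the 2 nearest patterns per gene, overlapping genes, Mettl5 and markers. One gene of the list of Ptx3 partners is not reported here, and no count or median of that list is given.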

Additional observations from a re-analysis of the deposited data

Results flagged for a closer look

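Of 58 groups of 4 libraries, 4 had 1 library far from the others by Dixon's ratio, and chance alone flags about 1 in 20 groups. Immp2l in METTL5-cKO library 4 at 3 months had 7.76 CPM, against 4.30 to 4.49 in the other 3. Map1a in the same library had 5.24 CPM, against 6.16 to 6.20. Lta4h in METTL5-cKO library 2 at 3 months had 17.0 CPM, against 16.4 to 16.5. Ptx3 in METTL5-cKO library 1 after TAC had 1.67 CPM, against 1.21 to 1.28.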

How the results depend on the processing

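At 3 months, the count of genes that passed moved from 0 to 2 with DESeq2, to 1 without METTL5-cKO library 4 (range 0 to 1 over the libraries left out) and to 4 with unadjusted p. In NRVMs it moved from 4 to 0 when a log2 fold change over 1 was also asked for. Under scaling by library size alone the median gene after TAC had a log2 fold change of 0.143, and the log2 fold changes after TAC were 1.13 for Sulf2, 0.52 for Lta4h, 0.77 for Dipk2a and -1.21 for Immp2l. Signs turned for Map1a at 1 month (0.0487 with library size alone; 0.022, 0.138 and 0.0538 with 1 library left out, range -0.153 to 0.138), Lta4h at 1 month (-0.0401, range -0.0401 to 0.0990), Efhd2 at 1 month (0.161, range -0.303 to 0.161), Lman1l at 3 months (0.294, 0.154 and 0.149, range -1.66 to 0.294) and Lta4h in NRVMs (0.0937 with library size alone). The cause was not tested. Of the values of single genes under the alternatives, 336 kept their direction and, outside TAC, their side of the threshold. Values after TAC carry no test and were held to the SD between libraries. After TAC, the groups of all 8 genes were apart under each alternative that kept them. The filter of at least 10 counts in every library left 7, without Ptx3. The number of genes called over the table ranged from 479 to 3899 with 1 library left out, the latter without METTL5-cKO library 4, against 2071. At 1 month the fit with the replicate number as a block called 0 of the 8 genes (log2 fold changes 0.29 for Sulf2, -0.22 for Immp2l and -0.10 for Efhd2). Same-numbered libraries correlated at 0.239, 0.12, -0.107 and 0.0782, so the numbers were not taken as pairing. No paired analysis was possible in the other tables because their columns carry no replicate numbers of the labels. Depth limits Ptx3 and Lman1l in mouse hearts.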
